A study of Mus musculus with 12 samples.

Results

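The genes described here are 37 lysosome and autophagy genes, picked by symbol out of the 24533 genes listed in 2 tables that compare U2af1-knockout with wild-type mouse bone marrow cells. They comprise 24 genes for lysosomal hydrolases, luminal cofactors and membrane proteins, 10 genes of the autophagy machinery, 2 proton pump subunits and the transcription factor gene Tfeb. All 37 were found in both tables and all had an adjusted p in both. U2af1 encodes the small subunit of the factor that recognises the 3′ splice site. The 12 libraries come from C57BL/6 bone marrow and form 4 groups of 3. These are LSK cells (lineage-negative, Sca-1-positive, c-Kit-positive marrow cells, the fraction that holds the stem cells) of genotype U2af1KO and of genotype WT, and lineage-negative marrow cells (LinNeg) of genotype U2af1KO and of genotype WT. The LSK samples of both genotypes also carry the label BMT and the LinNeg samples the label BM, so the cell population and that label cannot be told apart. The sources used here do not say how U2af1 was deleted, in which cells, or at what age the mice were studied.

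Lysosomes are acidic compartments in which hydrolases digest material that arrives by endocytosis, phagocytosis or autophagy. A proton pump keeps the lumen acid, heavily glycosylated membrane proteins line it, and macrophages and granule-bearing cells of the marrow are rich in lysosomal proteins. In autophagy, a kinase and a lipid kinase complex start a membrane sac, small ubiquitin-like proteins of the ATG8 family are coupled to its lipids, and the closed sac fuses with a lysosome. In blood stem cells autophagy is known for keeping mitochondria and metabolic activity low, and in erythroid precursors for removing mitochondria.

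Per gene, the authors' deposited tables give a mean of normalized counts over the libraries, a log2 fold change of KO over WT with its standard error (SE), and an adjusted p. The mean under each genotype label was derived from the deposited mean and fold change. Values per library were not analysed here, so the spread among libraries enters only through the SEs, and the depth of each library is unknown. A gene is called higher or lower in KO when the adjusted p in the authors' deposited table is under 0.05. The members were chosen with earlier results of these tables known, so their counts describe this list and test nothing about it. Nothing in the labels ties replicates to separate animals, so the p-values rest on differences among these libraries that may be technical only. In bulk samples, fewer cells of a type and less RNA per cell cannot be told apart.

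The targeted gene was not lower under the KO label: in the authors' deposited tables U2af1 had a log2 fold change of 0.61 in LSK and 0.65 in LinNeg. A count over the whole gene does not check a deletion of part of it, and each direction here rests on the authors' name for the comparison. In the authors' deposited LSK table, the RNA of the inactive X chromosome, Xist, had a log2 fold change of 7.49 (SE 0.94) and the Y-linked Ddx3y one of -9.21 (SE 0.38). In the authors' deposited LinNeg table Xist was at 10.02 (SE 1.81) and Ddx3y at -0.79 (SE 1.64). In LSK Xist averaged 62400 in KO and 347 in WT libraries, and Ddx3y 4.99 in KO and 2950 in WT. By these genes LSK KO libraries were female and WT libraries male, so sex and genotype cannot be told apart there. In LinNeg Xist averaged 41500 in KO and 40 in WT, and Ddx3y 1250 in KO and 2160 in WT. Sex thus differed there too, with KO libraries holding both RNAs. The part of sex in the results below, which include the X-linked Lamp2 and Tfe3, was not tested. Of the sort markers, Kit (c-Kit) averaged 14587 normalized counts in KO and 28724 in WT LSK libraries, and Ly6a (Sca-1) averaged 335 in KO and 593 in WT LSK libraries. In LinNeg Kit averaged 2114 in KO and 1644 in WT libraries, and was not called. Ly6a averaged 2784 in KO and 605 in WT LinNeg libraries, higher in KO there (adjusted p = 1.31e-13 by the authors' deposited table) and lower in KO in LSK.

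In LSK cells the lysosome and autophagy genes moved in both directions. Of the 37 genes, 12 were higher in KO, 11 were lower and 14 were not called, with a median log2 fold change of 0.01. Over the 16482 genes tested, 61.6% were called, 32.4% higher and 29.2% lower, with a median of 0.04, so the members' counts lay near the background. In LinNeg cells, by contrast, 2 were higher, 26 were lower and 9 were not called, with a median of -0.83. There 41.4% of 17108 genes were called, 22.1% higher and 19.3% lower, with a median of 0.16. Recentring the LinNeg values on that median gave 17.7% higher and 24.1% lower over all genes.

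The lysosomal genes and the autophagy machinery were close together in LSK and apart in LinNeg, with no test made of the classes. In LSK, 7 of the 24 lysosomal genes were higher in KO and 7 lower, with a median of 0.03, and 4 of the 10 autophagy genes were higher and 3 lower, with a median of -0.08. Over all genes tested, 32.4% were higher and 29.2% lower in LSK, so both classes lay near the background there. In LinNeg the shares over all genes were 22.1% higher and 19.3% lower. In LinNeg, 1 of the 24 lysosomal genes was higher and 21 were lower, 15 of these by at least 2-fold, with a median of -1.24. Of the 10 autophagy genes in LinNeg 1 was higher and 3 were lower, none by 2-fold, with a median of -0.23. The share of all genes called at 2-fold was not counted, so the 2-fold counts have no background beside them. Summed per kb of exon, the lysosomal genes came to 25000 normalized counts per kb in KO and 25600 in WT in the LSK table. In the LinNeg table the same sum was 20600 in KO and 57400 in WT. The autophagy genes summed to 7130 in KO and 7570 in WT in LSK, and to 6920 in KO and 8940 in WT in LinNeg. The drop in summed level in LinNeg was thus 2.79-fold for the lysosomal genes and 1.29-fold for the autophagy genes. The largest parts of the lysosomal sum in WT LinNeg libraries were Psap (13115 per kb), Ctsd (9307) and Laptm5 (7706). The sum therefore weighs these genes most and does not describe each of the 24.

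**Figure D1:**
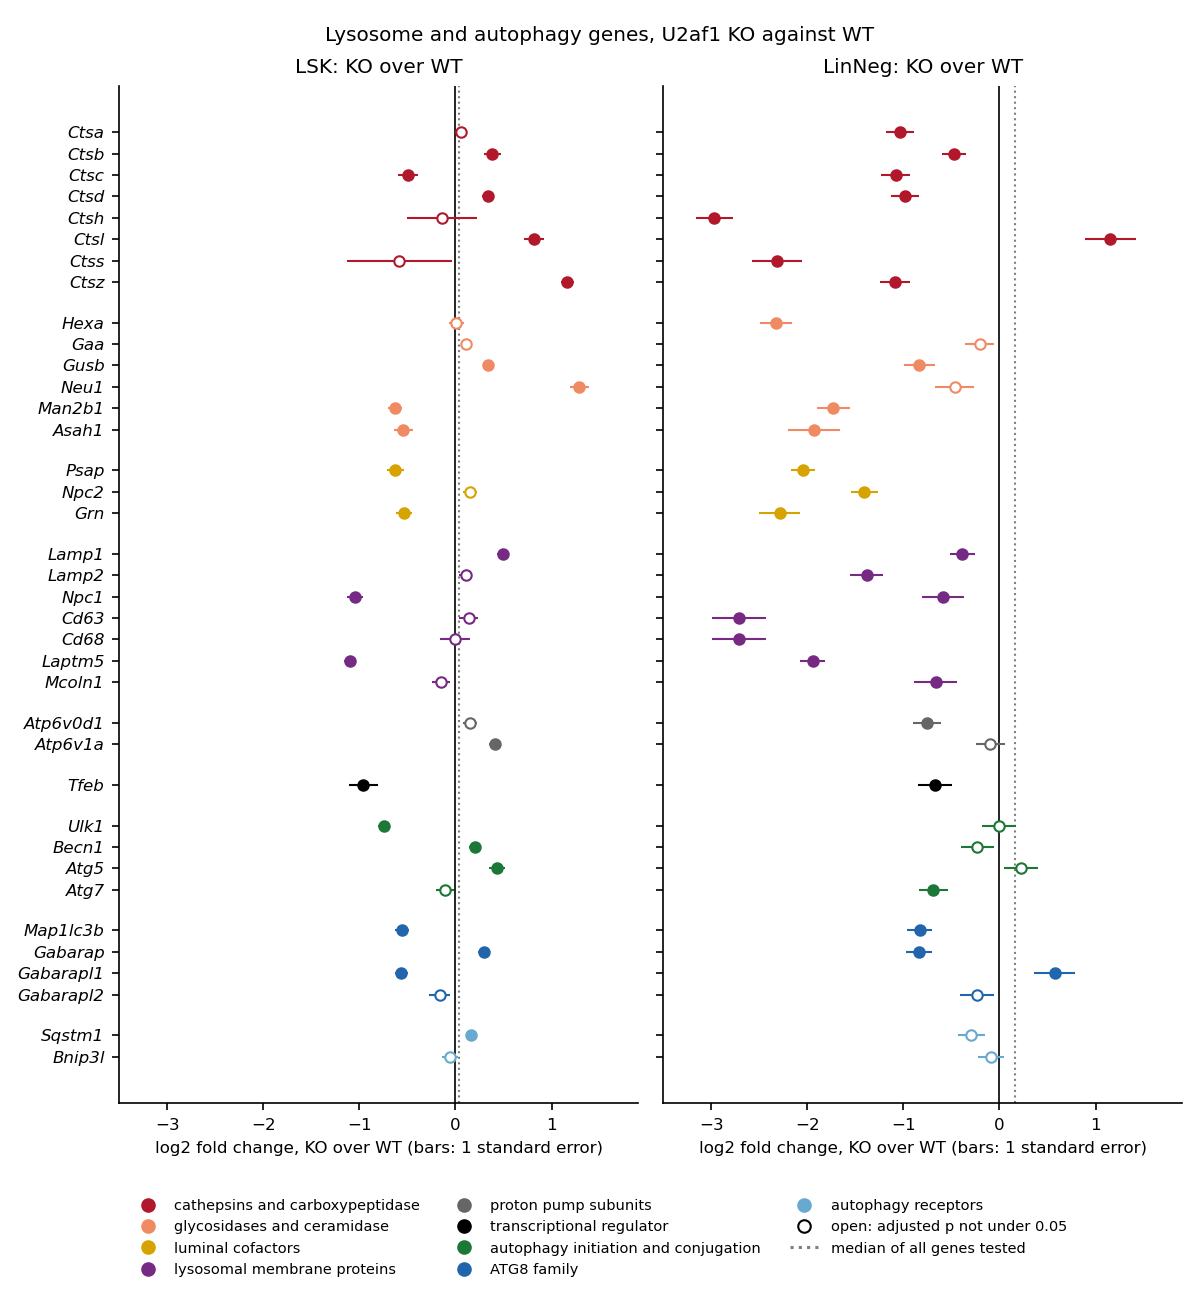
Log2 fold change of KO over WT for each of the 37 genes (x axis, bars of 1 standard error from the authors' deposited tables) in LSK on the left and LinNeg on the right, with genes grouped by role. Filled points have an adjusted p under 0.05. In LSK 18 of the 37 points lie left of 0, and in LinNeg 34 do.

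Cell type markers moved as well in LinNeg. The 18 monocyte, macrophage and dendritic cell markers summed to 9408 normalized counts in KO and 94437 in WT in LinNeg, where 15 were lower and 0 higher in KO. The 9 mast cell and basophil markers summed to 54988 in KO and 603915 in WT, with 6 lower and 3 higher, each by at least 2-fold. Their log2 fold changes ran from -3.98 to 11.13, and 1 marker had a derived mean under 1 in WT, so the sum does not describe each marker. The 14 neutrophil granule markers summed to 4847 in KO and 87849 in WT, with 9 lower and 0 higher of 13 tested. None of these markers was listed at 0 in the LinNeg table, but Siglech, a marker of plasmacytoid dendritic cells, had a derived mean of 0.350 in KO and 829.7 in WT, and Cd300c one of 0.180 in KO and 222 in WT. Erythroid markers went the other way, with 12 higher and 0 lower of 13 tested, and sums of 137453 in KO and 28047 in WT. The 7 megakaryocyte markers summed to 7572 in KO and 33061 in WT, with 6 lower. Other leukocyte markers were few: B cell markers summed to 529 in KO and 485 in WT, and T and NK cell markers to 2664 in KO and 2964 in WT. Of the 4 B cell markers 1 was lower, and of 3 T and NK cell markers tested 2 were higher and 1 lower. The part of these cell types in the lysosomal result was not tested.

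In LSK the same lists stood differently. The 14 neutrophil granule markers summed to 173052 in KO and 61336 in WT, with 13 higher and 0 lower. The erythroid markers summed to 155537 in KO and 34135 in WT, with 13 higher of 13 tested. Of the monocyte, macrophage and dendritic cell markers 7 were higher and 5 lower, with sums of 10838 in KO and 12055 in WT. Mast cell and basophil markers summed to 7255 in KO and 3230 in WT, with 7 of 9 higher, and megakaryocyte markers to 4774 in KO and 21845 in WT, with 7 of 7 lower. No B, T or NK cell marker was called, with B cell markers summing to 437 in KO and 380 in WT and T and NK cell markers to 2612 in KO and 2376 in WT. Stem and progenitor markers summed to 21505 in KO and 56686 in WT in LSK, with 1 higher and 7 lower of 9. The sort marker Kit made up the largest part of both LSK sums. In LinNeg the same markers summed to 9132 in KO and 4834 in WT, with 3 higher, 2 lower and 4 not called. The globin genes Hbb-bs and Hbb-bt were listed at 0 in both tables. The part of any of these cells in the LSK values was not tested.

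The cathepsins, the proteases of the lysosome, included 4 genes higher and 1 lower in KO in LSK, and 1 higher and 7 lower in LinNeg. Ctsz, a carboxypeptidase-type cathepsin, averaged 4242 normalized counts in KO and 1891 in WT in LSK, a rise with a log2 fold change of 1.17 (SE 0.06, adjusted p = 9.9e-73) by the authors' deposited table. In LinNeg it averaged 2172 in KO and 4613 in WT, a log2 fold change of -1.09 (SE 0.16, adjusted p = 5.19e-11) by the authors' deposited table. Ctsz was thus 2.24-fold higher in KO in LSK and 2.12-fold lower in KO in LinNeg. Ctsh, an aminopeptidase, averaged 134 in KO and 148 in WT in LSK and 369.9 in KO and 2898 in WT in LinNeg. Its fall in LinNeg was the deepest of all 37 genes, -2.97 (SE 0.19, adjusted p = 4.12e-51) by the authors' deposited table, while in LSK the value was -0.14 with a SE of 0.37.

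Ctss, the protease that trims the invariant chain of MHC class II in antigen-presenting cells, averaged 280.3 in KO and 421 in WT in LSK and 445 in KO and 2217 in WT in LinNeg. The authors' deposited tables gave it -0.59 in LSK (SE 0.55, adjusted p = 0.361) and -2.32 in LinNeg (SE 0.26, adjusted p = 8.03e-18). The SE of Ctss in LSK was the widest of all members there. Ctsl, a broadly expressed endopeptidase, was the one cathepsin not lower in KO in LinNeg: it averaged 823 in KO and 466 in WT in LSK, and 1009 in KO and 453 in WT in LinNeg. It rose by 0.82 in LSK (SE 0.10, adjusted p = 5.7e-15) and by 1.15 in LinNeg (SE 0.27, adjusted p = 7.77e-05) by the authors' deposited tables, and no other member rose in both. Ctsc, which activates the serine proteases of granules, averaged 1242 in KO and 1745 in WT in LSK and 1204 in KO and 2549 in WT in LinNeg. It fell in both, with -0.49 in LSK (adjusted p = 1.05e-05) and -1.08 in LinNeg (adjusted p = 3.72e-11) by the authors' deposited tables. The aspartic protease Ctsd and the cysteine protease Ctsb rose in LSK, with log2 fold changes of 0.34 and 0.38, and fell in LinNeg, with values of -0.98 and -0.47, in the authors' deposited tables. Ctsa, the carboxypeptidase that protects the sialidase Neu1 and beta-galactosidase, was at 0.06 in LSK, not called, and was lower in KO in LinNeg, at -1.03, in the authors' deposited tables.

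Among the glycosidases and lipid hydrolases, Hexa, the alpha subunit of beta-hexosaminidase that degrades GM2 ganglioside, averaged 3069 in KO and 3048 in WT in LSK and 810.2 in KO and 4065 in WT in LinNeg. The authors' deposited tables gave it 0.01 in LSK (SE 0.08, adjusted p = 0.923) and -2.33 in LinNeg (SE 0.17, adjusted p = 6.82e-42). The sialidase Neu1 was the largest rise of all members in LSK. It averaged 1059 in KO and 433 in WT there, a log2 fold change of 1.29 (SE 0.10, adjusted p = 4.81e-35), and 856 in KO and 1182 in WT in LinNeg, where it was at -0.47 (SE 0.20, adjusted p = 0.0534), in the authors' deposited tables. Man2b1, the lysosomal alpha-mannosidase, fell in both: it averaged 4913 in KO and 7618 in WT in LSK, and 7276 in KO and 24114 in WT in LinNeg, with log2 fold changes of -0.63 (adjusted p = 5.46e-18) and -1.73 (adjusted p = 2.72e-21) by the authors' deposited tables. Asah1, acid ceramidase, fell in both too, with -0.54 in LSK (adjusted p = 1.35e-07) and -1.93 in LinNeg (adjusted p = 7.05e-12) in the authors' deposited tables. Gusb, beta-glucuronidase, rose by 0.34 in LSK and was lower in LinNeg, at -0.83, in the authors' deposited tables. Gaa, the acid glucosidase that breaks down glycogen, was at 0.11 in LSK and -0.21 in LinNeg in the authors' deposited tables and was called in neither.

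The luminal cofactors fell in LinNeg without exception. Psap, the precursor of the saposins that present lipids to hydrolases, had the highest level per kb of the 37 genes in WT libraries of both tables. It averaged 7944 in KO and 12259 in WT in LSK (log2 fold change -0.63, SE 0.09, adjusted p = 1.11e-11 by the authors' deposited table). In LinNeg it averaged 8706 in KO and 35987 in WT (-2.05, SE 0.12, adjusted p = 4.63e-58 by the authors' deposited table), the smallest adjusted p of any member in that table. Grn, progranulin, averaged 2372 in KO and 3443 in WT in LSK and 1425 in KO and 6967 in WT in LinNeg, with log2 fold changes of -0.54 in LSK (adjusted p = 3.61e-10) and -2.29 in LinNeg (adjusted p = 1.23e-25) in the authors' deposited tables. Npc2, which hands cholesterol to Npc1, averaged 3845 in KO and 3465 in WT in LSK, where it was not called (adjusted p = 0.0609 by the authors' deposited table). In LinNeg it averaged 3023 in KO and 8011 in WT, with a log2 fold change of -1.41 (SE 0.14, adjusted p = 1.03e-22 by the authors' deposited table).

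All 7 membrane proteins fell in LinNeg. Laptm5, a membrane protein of leukocyte lysosomes, averaged 7389 in KO and 15844 in WT in LSK, and 7579 in KO and 29190.3 in WT in LinNeg. Its log2 fold changes of -1.10 in LSK (adjusted p = 5.32e-71) and -1.95 in LinNeg (adjusted p = 2.64e-50) in the authors' deposited tables made it the largest fall of all members in LSK. The cholesterol exporter Npc1 averaged 1349 in KO and 2787 in WT in LSK, and 1571 in KO and 2363 in WT in LinNeg. It was the other member to fall by at least 2-fold in LSK (-1.05, adjusted p = 1.34e-36), and in LinNeg it stood at -0.59 (SE 0.22, adjusted p = 0.0189), in the authors' deposited tables. Npc1 and Npc2 act in one pathway. In LSK Npc1 was lower in KO and Npc2 was not called, while in LinNeg both were lower.

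The tetraspanin Cd63, a marker of late endosomes and of basophil and platelet granules, averaged 2077 in KO and 1889.9 in WT in LSK and 2029 in KO and 13295 in WT in LinNeg. Its log2 fold change in LinNeg was -2.71 (SE 0.28, adjusted p = 4.08e-21) by the authors' deposited table. The macrophage protein Cd68 was not called in LSK (adjusted p = 0.982) and, like Cd63, was at -2.71 in LinNeg by the authors' deposited tables. Lamp2, one of the 2 main membrane glycoproteins, was at 0.11 in LSK and -1.38 in LinNeg by the authors' deposited tables. The other one, Lamp1, averaged 7551 in KO and 5357 in WT in LSK, a rise of 0.50 (adjusted p = 3.66e-17) by the authors' deposited table. In LinNeg it averaged 6351 in KO and 8296 in WT, a log2 fold change of -0.39 (adjusted p = 0.0105) by the authors' deposited table. The calcium channel Mcoln1 was at -0.15 in LSK, not called, and at -0.67 in LinNeg (adjusted p = 0.0082) in the authors' deposited tables.

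**Figure D2:**
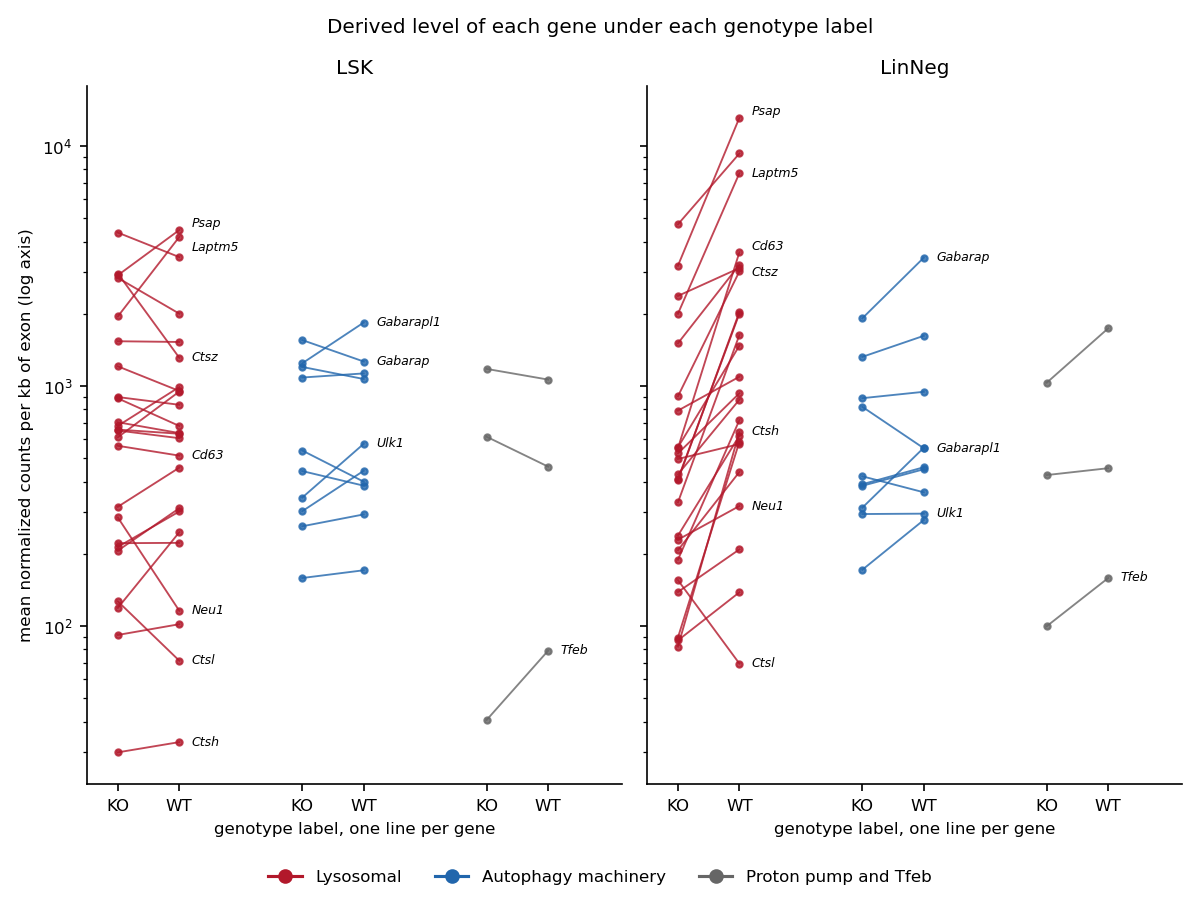
Derived mean of each gene per kb of exon (log axis) under the KO label (left) and the WT label (right) in LSK and LinNeg, one line per gene. In LinNeg most lysosomal lines climb towards WT, with Ctsl the exception, while lines of the autophagy genes are flatter. Because each table has its own normalization, no level is compared across the panels.

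Both pump subunits changed by less than 2-fold in either table, and the gene of the regulator TFEB, which drives many lysosomal genes, was lower in both. Atp6v1a, the catalytic subunit of the pump, averaged 3717 in KO and 2792 in WT in LSK and rose by 0.41 (adjusted p = 5.9e-11), while in LinNeg it averaged 2575 in KO and 2750.1 in WT and was at -0.09 (adjusted p = 0.664), in the authors' deposited tables. Atp6v0d1, a subunit of its membrane part, averaged 2114 in KO and 1908 in WT in LSK and 1852 in KO and 3122 in WT in LinNeg. It was at 0.15 in LSK (adjusted p = 0.0619) and -0.75 in LinNeg (adjusted p = 1.01e-06) in the authors' deposited tables. Tfeb averaged 230.7 in KO and 448 in WT in LSK, and 567 in KO and 899.9 in WT in LinNeg. It fell in both, with log2 fold changes of -0.96 in LSK (SE 0.15, adjusted p = 6.13e-10) and -0.67 in LinNeg (SE 0.18, adjusted p = 0.000745) by the authors' deposited tables. In WT libraries Tfeb ranked 35 of 37 by level per kb in both tables.

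TFEB binds a palindromic E-box, CACGTG, in the promoters of many lysosomal genes. RefSeq promoters of build GRCm38.p6, from 250 bases before to 50 bases after a start, were at hand for 31 of the 37 members (35 promoters). CACGTG occurred in 28.6% of these 35 promoters and in 7.15% of all 32851 promoters in the set. The longer form TCACGTG, which contains it and was sought on both strands, occurred in 22.9% of member promoters and 3.77% of all. The wider lists of lysosome and autophagy genes described below held CACGTG in 18.0% of 150 promoters. By gene, 10 of the 31 members had it, 6 of 20 lysosomal genes and 2 of 8 autophagy genes among them. A match describes these letters and is neither a shown binding site nor a cause. The stretch around the match is printed for 7 of these 10 genes, among them genes called higher, lower or not at all, with CACGTG in capitals.
Lamp1: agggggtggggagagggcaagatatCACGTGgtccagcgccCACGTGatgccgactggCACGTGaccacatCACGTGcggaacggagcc
Mcoln1: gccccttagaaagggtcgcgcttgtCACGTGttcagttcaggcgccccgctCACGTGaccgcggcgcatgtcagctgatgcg
Ctsd: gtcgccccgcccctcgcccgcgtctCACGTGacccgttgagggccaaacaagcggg
Ctsa: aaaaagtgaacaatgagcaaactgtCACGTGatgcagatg
Atp6v1a: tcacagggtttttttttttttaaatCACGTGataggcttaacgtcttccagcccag
Atg7: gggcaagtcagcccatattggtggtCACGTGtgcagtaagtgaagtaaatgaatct
Ctsl: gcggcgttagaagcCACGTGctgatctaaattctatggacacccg

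These stretches lie, on GRCm38.p6, at chr8:13159075-13159163 (Lamp1, plus strand), chr8:3500423-3500504 (Mcoln1, plus strand), chr7:142387895-142387950 (Ctsd, minus strand), chr2:164833736-164833775 (Ctsa, plus strand), chr16:44139360-44139415 (Atp6v1a, minus strand), chr6:114670939-114670994 (Atg7, plus strand) and chr13:64370726-64370770 (Ctsl, minus strand). Lamp1 held 4 copies within its promoter, the first starting at position -61 and the last at -15 relative to the start, and the promoters of Mcoln1, Ctsa and Ctsd held 2 each, of which the Ctsa and Ctsd stretches show 1. Lamp1, Ctsd and Atp6v1a, which carry the motif, were higher in KO in LSK, and Ctsa and Mcoln1, which carry it as well, were not called there. Of the 10 genes with the motif, 5 were higher and 0 lower in LSK (median 0.24), and 1 was higher and 6 lower in LinNeg (median -0.53). Of the 21 without it, 5 were higher and 9 lower in LSK (median -0.16), and 1 was higher and 16 lower in LinNeg (median -1.09). No test was made of this split, and 10 genes are few. Beside it, all genes tested were 32.4% higher and 29.2% lower in LSK, and 22.1% higher and 19.3% lower in LinNeg.

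The autophagy genes changed by less than 2-fold throughout, and their members went in both directions. Of the 10, 4 were higher and 3 lower in LSK, and 1 was higher and 3 lower in LinNeg. Over all genes tested, 32.4% were higher and 29.2% lower in LSK, and 22.1% higher and 19.3% lower in LinNeg. Mixed directions are thus not particular to these genes. Ulk1, the kinase that starts autophagy, averaged 2227 in KO and 3730.0 in WT in LSK and 1902 in KO and 1909 in WT in LinNeg. The authors' deposited tables gave it -0.74 in LSK (SE 0.06, adjusted p = 5.75e-35), the largest fall of the 10 autophagy genes there, and -0.01 in LinNeg (SE 0.18, adjusted p = 0.984). Becn1, of the lipid kinase complex, averaged 3127 in KO and 2718 in WT in LSK and 2715 in KO and 3183 in WT in LinNeg. It rose by 0.20 in LSK (adjusted p = 0.00133) and was not called in LinNeg (adjusted p = 0.284) in the authors' deposited tables. Of the conjugation enzymes, Atg5 averaged 1268 in KO and 940.2 in WT in LSK, a rise of 0.43 (adjusted p = 1.34e-06), and 990.1 in KO and 849 in WT in LinNeg (0.22, adjusted p = 0.336), in the authors' deposited tables. Atg7 averaged 1106 in KO and 1191 in WT in LSK (-0.11, adjusted p = 0.322), and 1197 in KO and 1929 in WT in LinNeg (-0.69, adjusted p = 3.42e-05), in the authors' deposited tables.

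The 4 genes of the ATG8 family, whose lipid-coupled products build the autophagosome and recruit cargo, showed 4 different patterns. Map1lc3b, which encodes LC3B, averaged 2264 in KO and 3337 in WT in LSK and 2342 in KO and 4163 in WT in LinNeg. It fell in both, with -0.56 in LSK (adjusted p = 7.25e-14) and -0.83 in LinNeg (adjusted p = 1.09e-09) in the authors' deposited tables. Gabarap averaged 2867 in KO and 2334 in WT in LSK, a rise of 0.30 (adjusted p = 7.95e-06), and 3533 in KO and 6321 in WT in LinNeg, a log2 fold change of -0.84 (adjusted p = 4.11e-09), in the authors' deposited tables. Gabarapl1 did the reverse. It averaged 2505 in KO and 3704 in WT in LSK (-0.56, SE 0.07, adjusted p = 1.03e-15), and 1650.0 in KO and 1109 in WT in LinNeg (0.57, SE 0.21, adjusted p = 0.0192), in the authors' deposited tables. With the LinNeg values recentred on the median gene, the rise of Gabarapl1 there was no longer called (0.42, adjusted p = 0.101). Gabarapl2 averaged 606 in KO and 679 in WT in LSK and 907 in KO and 1068 in WT in LinNeg and was called in neither (adjusted p = 0.183 in LSK and 0.297 in LinNeg by the authors' deposited tables). Per kb of exon, Gabarapl1 was the highest of the 4 in WT LSK libraries (1840 normalized counts per kb, against 1266 for Gabarap), and Gabarap was the highest in WT LinNeg libraries (3428 per kb, against 551 for Gabarapl1).

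Neither autophagy receptor changed by more than 1.22-fold. Sqstm1 (p62), which links ubiquitylated cargo to ATG8 proteins, averaged 4032 in KO and 3592 in WT in LSK, a rise of 0.17 (adjusted p = 0.00648), and 4442 in KO and 5437 in WT in LinNeg (-0.29, adjusted p = 0.0851), in the authors' deposited tables. Bnip3l (NIX), the receptor by which erythroid cells remove their mitochondria, averaged 4189.7 in KO and 4358 in WT in LSK and 3436 in KO and 3654 in WT in LinNeg. Its log2 fold changes of -0.06 in LSK and -0.09 in LinNeg in the authors' deposited tables were not called, in the same libraries in which erythroid markers rose.

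Whether the KO effect differed between the populations was tested per gene as the LSK minus LinNeg difference of log2 fold changes (two-sided normal test over 15735 genes, Benjamini-Hochberg adjustment). Of the 37 genes, 26 had a higher value in LSK, 2 a lower one and 9 were not called. Over all genes 31.9% were called, 17.4% higher in LSK and 14.5% lower, and the median difference was -0.0008. Among the 24 lysosomal genes the effect was higher in LSK in 20 and lower in 0, with a median difference of 1.35, and among the 10 autophagy genes it was higher in 4 and lower in 2, with a median of 0.24. The widest differences were those of Cd63 (2.85, SE 0.29, adjusted p = 1.73e-20) and Ctsh (2.83, SE 0.41, adjusted p = 2.06e-10), followed by Cd68 at 2.70. The 2 genes with a lower value in LSK were Gabarapl1 (-1.14, SE 0.22, adjusted p = 3.41e-06) and Ulk1 (-0.74, SE 0.19, adjusted p = 0.000435). The differences not called included Tfeb (-0.29, 95% interval -0.75 to 0.16), Npc1 (-0.46, interval -0.91 to -0.004, which excludes 0 before adjustment, adjusted p = 0.121) and Ctsl (-0.33, interval -0.89 to 0.23).

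Set side by side, 6 genes were higher in KO in LSK and lower in KO in LinNeg, namely Ctsb, Ctsd, Ctsz, Gabarap, Gusb and Lamp1. That combination was seen in 3.43% of the genes tested in both tables. Only Gabarapl1 showed the opposite one, which 2.72% of all genes had. A further 9 genes were lower in both (Asah1, Ctsc, Grn, Laptm5, Man2b1, Map1lc3b, Npc1, Psap and Tfeb) and 11 were lower in LinNeg and not called in LSK. Of all genes tested in both, 12.2% had the first combination and 5.12% the second. Bnip3l, Gaa and Gabarapl2 were called in neither table, as were 25.7% of all genes.

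**Figure D3:**
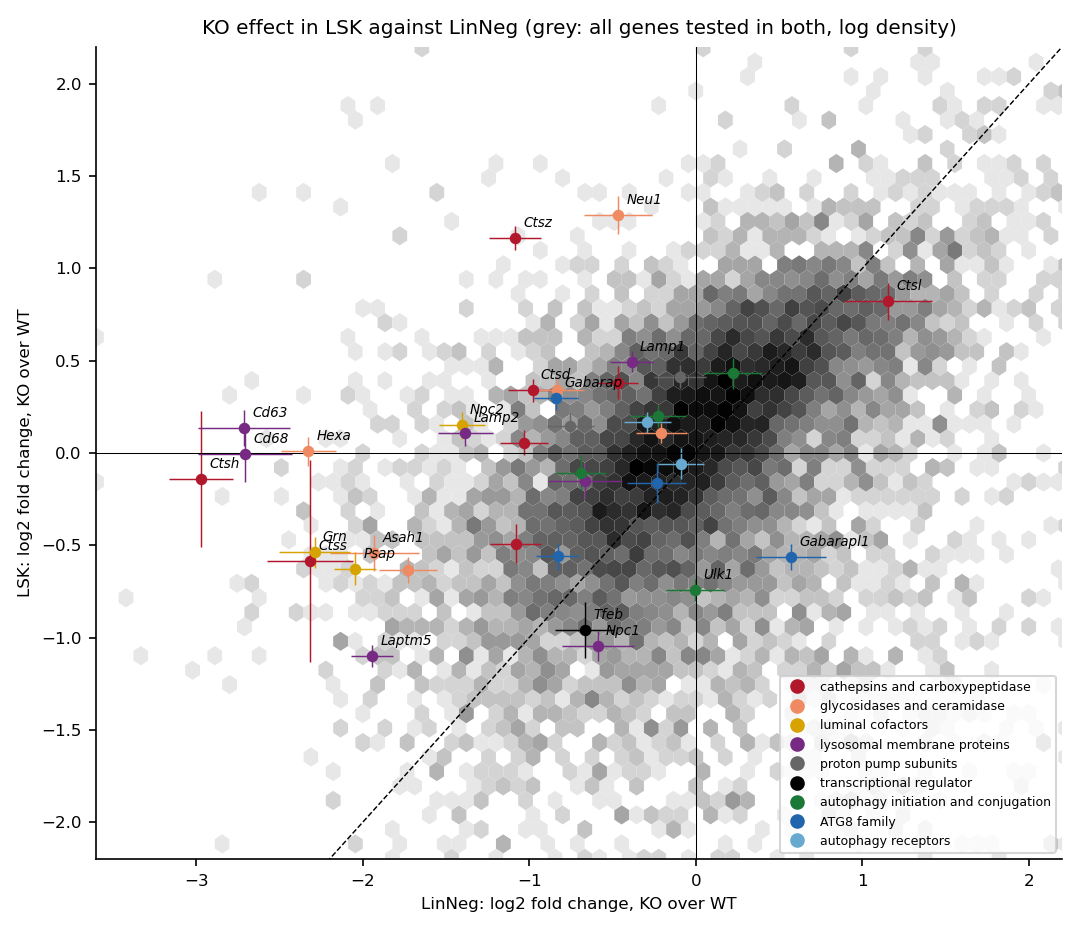
Log2 fold change of KO over WT in LSK (y axis) against LinNeg (x axis) for the 37 genes, with bars of 1 standard error from the authors' deposited tables, over the density of all 15735 genes tested in both. Points above the dashed line of equality have a higher value in LSK. Most lysosomal genes lie above it, and Gabarapl1 and Ulk1 lie below.

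The rest of the pathway, 150 genes in 5 further lists, was scored in the same way. In LSK 50 were higher and 52 lower of 148 tested, and in LinNeg 20 were higher and 72 lower of 149 tested. For comparison, 32.4% of all genes tested were higher and 29.2% lower in LSK, and 22.1% were higher and 19.3% lower in LinNeg. The LSK counts of the 5 lists together thus lay near the background. Among 37 other lysosomal hydrolases, 10 were higher and 15 lower in LSK (median -0.10), and 4 were higher and 24 lower in LinNeg (median -0.74). Gm2a, the activator of GM2 degradation by hexosaminidase, averaged 3584 in KO and 6640.2 in WT in LSK and 2265 in KO and 13539.7 in WT in LinNeg. The cysteine protease Ctsf averaged 50.2 in KO and 496 in WT in LSK and 268 in KO and 124 in WT in LinNeg, with log2 fold changes of -3.31 in LSK and 1.11 in LinNeg by the authors' deposited tables. The heparan sulfatase gene Sgsh fell in both, with -1.46 in LSK and -0.74 in LinNeg in the authors' deposited tables.

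Of 30 other membrane and sorting proteins, 11 were higher and 12 lower in LSK, and 3 were higher and 12 lower in LinNeg. The nucleoside transporter gene Slc29a3 was at -0.94 in LSK and -1.96 in LinNeg, and the lipid transporter gene Abca2 at -0.80 in LSK and -1.03 in LinNeg, by the authors' deposited tables. The channel gene Mcoln2, a relative of Mcoln1, was lower at -2.14 in LSK and stood at 0.75 in LinNeg, not called, in the authors' deposited tables. Of 19 other proton pump subunit genes 10 were higher and 3 lower in LSK, with 17 tested, and 2 were higher and 12 lower in LinNeg, with 18 tested. Atp6v0a1, of the membrane part, averaged 2240 in KO and 966 in WT in LSK and 3842 in KO and 11120.2 in WT in LinNeg. Its leukocyte and osteoclast counterpart Tcirg1 fell in both, with -0.46 in LSK and -1.65 in LinNeg, and Atp6v1g2 was at -1.42 in LSK and -0.75 in LinNeg, in the authors' deposited tables.

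Of 20 genes for MiT/TFE factors and for the control of mTORC1 on the lysosome, 8 were higher and 6 lower in LSK, and 4 were higher and 5 lower in LinNeg. Tfe3, the close relative of Tfeb, averaged 1601 in KO and 914 in WT in LSK, a rise of 0.81 in the authors' deposited table, while Tfeb fell. In LinNeg Tfe3 averaged 1199 in KO and 1201 in WT. Lamtor2, a scaffold of mTORC1 on the lysosome, was at 0.81 in LSK and -0.85 in LinNeg, and the mTORC1 inhibitor gene Tsc1 at -0.60 in LSK and 0.06 in LinNeg, in the authors' deposited tables. Of 44 other autophagy genes, 11 were higher and 16 lower in LSK (median -0.08), and 7 were higher and 19 lower in LinNeg (median -0.28). The receptor gene Optn averaged 2587 in KO and 598 in WT in LSK, a rise of 2.11, and was at -0.19 in LinNeg, not called, in the authors' deposited tables. Ulk2, the relative of Ulk1, fell in both, with -1.16 in LSK and -0.84 in LinNeg, as did the receptor-like Calcoco1, with -1.48 in LSK and -1.05 in LinNeg, in the authors' deposited tables.

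**Figure D4:**
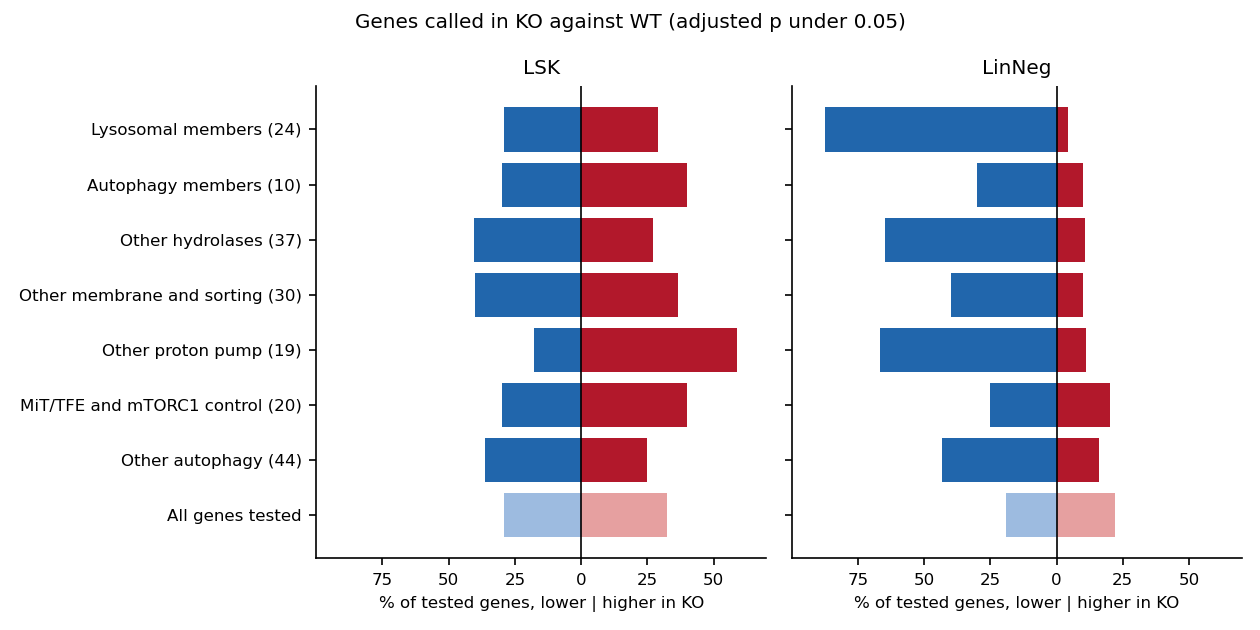
Share of tested genes called higher (red, right) or lower (blue, left) in KO, by list, in LSK and LinNeg, with all genes tested in pale bars at the bottom. The numbers in brackets are the genes in each list. In LinNeg the bars to the left are longest for the 24 lysosomal members, of which 21 were lower.

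Some members share exon sequence with a neighbour on the GENCODE M21 annotation, and the authors' counting is not stated to use strand. The share of exon length that overlaps another gene was largest for Becn1 (43.9%, with Cntd1) and Ctsd (34.4%, with Gm49369). It was 28.3% for Gabarapl1 (with 1700101I11Rik) and 26.8% for Ctsl (with Gm47123). Smaller shares were 17.4% for Ctsa, 17.3% for Sqstm1, 12.8% for Ctsb, 12.8% for Hexa and 9.3% for Lamp1. Npc1, Grn, Map1lc3b and Ctsz had 5.3% or less. Gm49369 lies on the same strand as Ctsd, so counting by strand would not separate them. Cntd1, 1700101I11Rik and Gm47123 lie on the strand opposite to the member they overlap. How such reads were assigned was not tested, and the levels of these members are reported as uncertain.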

How the data were processed

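RNA of 12 libraries was measured by the authors after magnetic lineage depletion, flow sorting, ribosomal RNA depletion and NEBNext Ultra II library preparation, per the labels' protocols. HISAT2, SAMtools 1.10, StringTie, DESeq2 and build mm10 are named in the submitters' processing notes. Which program and annotation gave the counts is not given in the sources used here, and depth per library is unknown. Per the file headers, the deposited values are the authors' mean of normalized counts (a signal on a linear scale), the log2 fold change and its standard error (log2), the Wald statistic (a score), and the p-value and adjusted p-value.

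Multiplying the statistic by its standard error gave log2 fold changes with more digits, which matched the deposited 2-decimal values within 0.005. Rows without a gene name (5) and with repeated symbols (4) were left out of each table. The row for reads without a feature held 26.4% of the summed mean normalized counts of all rows in LSK and 38.0% in LinNeg. Label means were derived assuming 3 libraries on each side. Exon lengths came from GENCODE M21. The difference test was run on simulated data with normal noise drawn from the same SEs that the test uses. That run checks the computation and cannot show whether those SEs are right. The members and lists were chosen with earlier results of these data known. Members with the 3 largest Wald statistics per class, and those called against their class, are given in full; of each further list, the 3 with the smallest adjusted p are named. Scripts ran in Python 3.11.15 with numpy 2.4.6, pandas 2.3.3 and scipy 1.17.1, and figures were drawn with matplotlib 3.10.9. The alternatives were thresholds of 0.01 and 0.1, adjustment over every gene with a p-value, recentring on the median gene, a mean of at least 50 and a fold of at least 2.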

Additional observations from a re-analysis of the deposited data

Results flagged for a closer look

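The KO effect of 28 members differed between LSK and LinNeg by the test of the difference itself (LSK minus LinNeg log2 fold change, adjusted p under 0.05). Among the cathepsins the differences were 1.09 for Ctsa, 0.85 for Ctsb, 0.59 for Ctsc, 1.32 for Ctsd, 2.83 for Ctsh, 1.73 for Ctss and 2.25 for Ctsz. Among the glycosidases and acid ceramidase they were 2.34 for Hexa, 1.17 for Gusb, 1.76 for Neu1, 1.096 for Man2b1 and 1.39 for Asah1. The luminal cofactors had differences of 1.42 for Psap, 1.56 for Npc2 and 1.75 for Grn. The membrane proteins had differences of 0.88 for Lamp1, 1.49 for Lamp2, 2.85 for Cd63, 2.70 for Cd68 and 0.84 for Laptm5. The pump subunits had differences of 0.90 for Atp6v0d1 and 0.51 for Atp6v1a. In the autophagy machinery the differences were -0.74 for Ulk1, 0.43 for Becn1, 0.58 for Atg7, 1.14 for Gabarap, -1.14 for Gabarapl1 and 0.46 for Sqstm1. The populations also differ in the label BMT, and the part of the 2 cannot be told apart. Sex by marker genes differed between genotypes too, and not alike in LSK and LinNeg. Ddx3y averaged 4.99 in KO and 2950 in WT in LSK, and 1250 in KO and 2160 in WT in LinNeg. The part of sex in these differences was not tested.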

How the results depend on the processing

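No paired analysis was possible because the tables hold the authors' comparisons and no values per library. Leaving out replicates and edgeR on counts were not run for the same reason. Requiring at least 2-fold left 4 members called in LSK, 2 higher and 2 lower, and 16 in LinNeg, 1 higher and 15 lower. The share of all genes that pass this setting was not counted. The count of members higher in LinNeg was 1 in place of 2 both with an adjusted p under 0.01 and after recentring on the median gene, in each case through the loss of Gabarapl1. The sign of Hexa in LSK reversed to -0.032 (adjusted p = 0.748) after recentring, and it was called under neither setting. At the stricter threshold the LinNeg falls of Lamp1 and Npc1 and the differences of Ctss, Becn1 and Sqstm1 were no longer called. The remaining 49 of 57 recomputed summary values stayed within 1.5 times the main count or within 1 median standard error, and 460 of 481 values for single members kept direction and call. Only recentring changes a fold change, so under the other settings the direction of a single member could not change. Recentring shifts both classes alike, so the lysosomal minus autophagy median could not change under it. Without Cd68, Ctss and Laptm5, which are largely restricted to leukocytes, the lysosomal minus autophagy median was 0.19 in LSK and -0.85 in LinNeg, against 0.12 in LSK and -1.0 in LinNeg with them. Other genes with deep falls in LinNeg stayed in, among them Ctsh (-2.97), Cd63 (-2.71), Grn (-2.29) and Psap (-2.05). Leaving out 3 genes thus does not show how far the contrast depends on cell types, which was not tested. Recentring also called Gaa, Neu1 and Sqstm1 in LinNeg. The 3 libraries per group limit the precision of every value.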
